A study of Mus musculus with 24 samples.

Results

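The proteins of the cytosolic ribosome were followed in mouse liver across Western diet, inhaled vinyl chloride and time. They were taken as every gene entry whose symbol names a small-subunit (Rps) or large-subunit (Rpl, Rplp) protein, which left out pseudogene symbols, the S6 kinases and the mitochondrial ribosome. That gave 83 of the 24421 entries of the count table, 32 of the small and 51 of the large subunit. Fau, which encodes a ribosomal protein fused to a ubiquitin-like sequence, fell outside the symbol rule and is described apart.

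Each ribosome joins a small subunit, which reads the messenger RNA, to a large subunit, which forms peptide bonds. Their proteins are needed in near-equal numbers, and most of their messages begin with a cytosine followed by a run of pyrimidines, the 5′ terminal oligopyrimidine (TOP) motif, through which mTOR and the RNA-binding protein LARP1 set how well they are translated. The liver, which exports large amounts of plasma protein, depends on this machinery.

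Male C57Bl/6J mice ate a control diet (CD, 13% fat) or a Western diet (WD, 42% fat), with a labelled feeding time of 12 weeks in the w12 groups and 12 months in the m12 groups. They breathed clean air or vinyl chloride (VC), a plastics monomer that the liver metabolises, at 0.85 ± 0.1 ppm in daily sessions of 6 hours, 5 per week, through 12 weeks. Livers of the groups w12_CD, w12_CD+VC, w12_WD and w12_WD+VC were taken when exposure ended, and those of m12_CD, m12_CD+VC, m12_WD and m12_WD+VC after 9 further months of housing, in each case after a 4 hour fast. Each of the 8 groups held 3 libraries of ribosomal-RNA-depleted total RNA. The labels give no age and name no animal for a library, and p-values therefore measure only the spread between these samples.

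Depth was low. In 23 libraries totals ran from 126160 to 962493 counts, at which 3 counts equal 3.12 to 23.8 CPM (the count per library total, scaled to a common size), and the third w12_WD library held 607 and was left out of all levels below, so that w12_WD has n = 2 there. It stayed in the test. Hepatocyte markers were present, with 1 of 15 at 0 counts in all libraries and a summed level of 3887 to 44230 CPM in the 12-month libraries. Entries whose exons overlap no gene on the other strand held a share of all counts that differed between the groups at 12 months, with m12_CD at 15.5% ± 3.58, m12_CD+VC at 26.5% ± 4.64, m12_WD at 25.8% ± 3.91 and m12_WD+VC at 20.6% ± 2.42 (SD, n = 3). Of the 83 ribosomal protein entries, 64 belong to that class and 19 overlap a gene on the other strand. No label names the strand setting of the counting, so counts of the latter are uncertain. An unsuitable setting could also lower the counts of the other 64, which was not tested.

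Pyrimidine runs were read near annotated start sites. A TOP motif begins at the first base of the message, which a run elsewhere in the window does not show. RefSeq (GRCm38.p6) start-site windows were matched for 62 of the symbols, with 74 starts. A run of at least 8 pyrimidines that begins with C lay within 50 bases of the annotated start in 58 of the 74 (78.38%), against 9450 of all 32851 starts (28.77%). A run was counted as far as it lies inside that window, and the same run can count for several starts of a gene, as in Rpl35a. The following 5 were chosen after their values were seen, as the genes that open the diet result at 12 months or depart from it, together with the S6 kinase substrate Rps6. Each is printed 5′ to 3′ on the gene's strand, with the pyrimidine run in capitals.
Rpl13a: acaagaCCTCCTCCTTTCCCaggcggctgc
Rps15: cccgtaCTTCCTTTTCCgagtaaccgccaa
Rps6: gtcgggCCTCTTTTTCgtgacgcctcccag
Rps25: accgggCTTCCTTTTTTTCCgacatcttag
Rpl27a: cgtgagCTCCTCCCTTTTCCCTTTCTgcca
They lie at chr7:45128720-45128749 (minus strand), chr10:80292450-80292479, chr4:86857345-86857374 (minus strand), chr9:44407686-44407715 and chr7:109519185-109519214. The runs of Rps25 and Rpl27a, 14 and 20 bases long, are at least as long as that of Rpl13a with 14. From the annotated start the runs begin at position 2 in Rpl13a, 25 in Rps15, -1 in Rps6, -22 in Rps25 and -4 in Rpl27a. The motif CCGGAAGT, searched on both strands as the core bound by ETS factors such as GABPA, stood in 12 of the 74 windows of 300 bases (16.22%) and in 1277 of all windows (3.89%). A match is a description of the letters only.

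Ribosomal protein entries were thinly counted. Together they held 50179 of 8606009 counts, or 0.583%. The 12 most counted entries held 1015 to 3796 counts, 6 held 1 to 50 and 4 held 0 in every library, among them Rpl26 and Rpl30 of the large subunit. The 5 most counted took 28.7% of the counts. Per kilobase of exon, the highest mean levels were 437 CPM for Rpl23a, 423 for Rpl36, 156 for Rps25, 155 for Rpl41 and 151 for Rpl4, against a median of 26.7 CPM per kilobase over entries with a count. These proteins are present in near-equal numbers in a ribosome, while the counted levels spread widely. Of the 83, 70 have at least 1 other annotated gene, often a processed pseudogene, that matches them at 98% or more over 100 or more bases, with a median of 3 such copies and at most 19. Reads of such copies cannot be assigned with certainty. Across the 83 entries, which share libraries, Spearman's rho between the level per kilobase and the number of copies was -0.037, as a description.

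The share of all counts in ribosomal protein entries was highest in m12_WD, and m12_CD lay near the 12-week groups. Small-subunit entries held 0.113% ± 0.0468 of the counts in w12_CD, 0.123% ± 0.0118 in w12_CD+VC, 0.117% ± 0.0198 in w12_WD (n = 2) and 0.142% ± 0.0176 in w12_WD+VC (SD, n = 3 elsewhere). Large-subunit entries held 0.192% ± 0.0696, 0.219% ± 0.0279, 0.189% ± 0.0510 and 0.244% ± 0.0391 in the same order. The highest of the usable 12-week libraries had 0.163% for the small and 0.285% for the large subunit.

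After 12 months m12_CD had a small-subunit share of 0.130% ± 0.0345, m12_CD+VC of 0.243% ± 0.0550, m12_WD of 0.420% ± 0.0434 and m12_WD+VC of 0.260% ± 0.0516 (SD, n = 3). The large-subunit share was 0.247% ± 0.0809, 0.416% ± 0.0601, 0.642% ± 0.0888 and 0.455% ± 0.0788 in that order. For both subunits the lowest m12_WD library lay above the highest library of every other group. The mean share of both together was 2.82 times as high in m12_WD as in m12_CD, 3.23 times for the small and 2.60 times for the large subunit. Leaving out each library in turn kept the m12_WD mean between 0.396% and 0.438% for the small subunit and between 0.591% and 0.668% for the large.

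**Figure D1:**
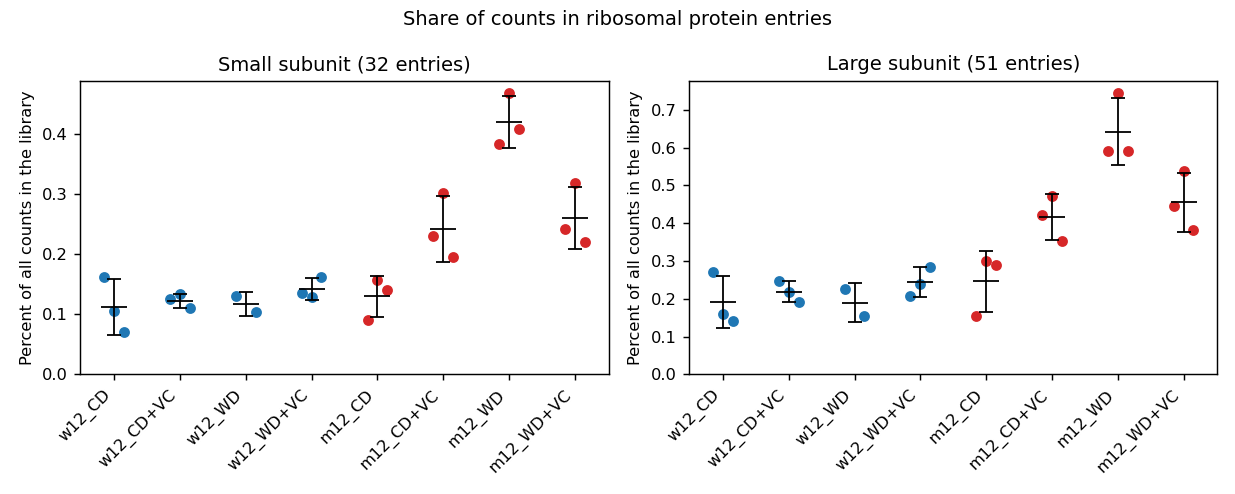
Share of each library's counts held by small-subunit (left) and large-subunit (right) ribosomal protein entries, in percent, by group. Points are libraries (blue 12 weeks, red 12 months), long bars the mean and short bars the SD. In both panels the 3 m12_WD libraries sit above all others, with means of 0.420% and 0.642%.

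Small-subunit counts per large-subunit count ran from 0.490 to 0.691 over the 23 libraries, from 0.629 to 0.691 in m12_WD and from 0.490 to 0.594 in m12_CD. Because entries without an overlap took a larger share of counts in some groups, the 64 ribosomal entries of that class were also set against that class alone. In m12_CD they made up 1.38% ± 0.159 of it, with 1.71% ± 0.118 for m12_CD+VC, 3.05% ± 0.285 for m12_WD and 2.50% ± 0.189 for m12_WD+VC (SD, n = 3). At 12 weeks the values were 1.04% ± 0.169 in w12_CD, 1.23% ± 0.0207 in w12_CD+VC, 1.21% ± 0.101 in w12_WD (n = 2) and 1.48% ± 0.0979 in w12_WD+VC. Within this class too m12_WD stood highest, with 2.84% to 3.38% against 2.38% to 2.72% in m12_WD+VC, its nearest neighbour, and the groups m12_CD, with 1.20% to 1.51%, and m12_CD+VC, with 1.60% to 1.83%, did not overlap.

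Of the 83 entries, 70 passed the filter on low counts, 28 of the small and 42 of the large subunit. An entry can pass through a group in which it is high, so counts over these 70 do not stand for all 83. In 66 of the 70 the highest group mean was that of m12_WD. The lowest was in w12_WD for 22, in m12_CD for 20 and in w12_CD for 18. These counts were not made over all tested entries, so how far they are particular to ribosomal entries was not tested.

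**Figure D2:**
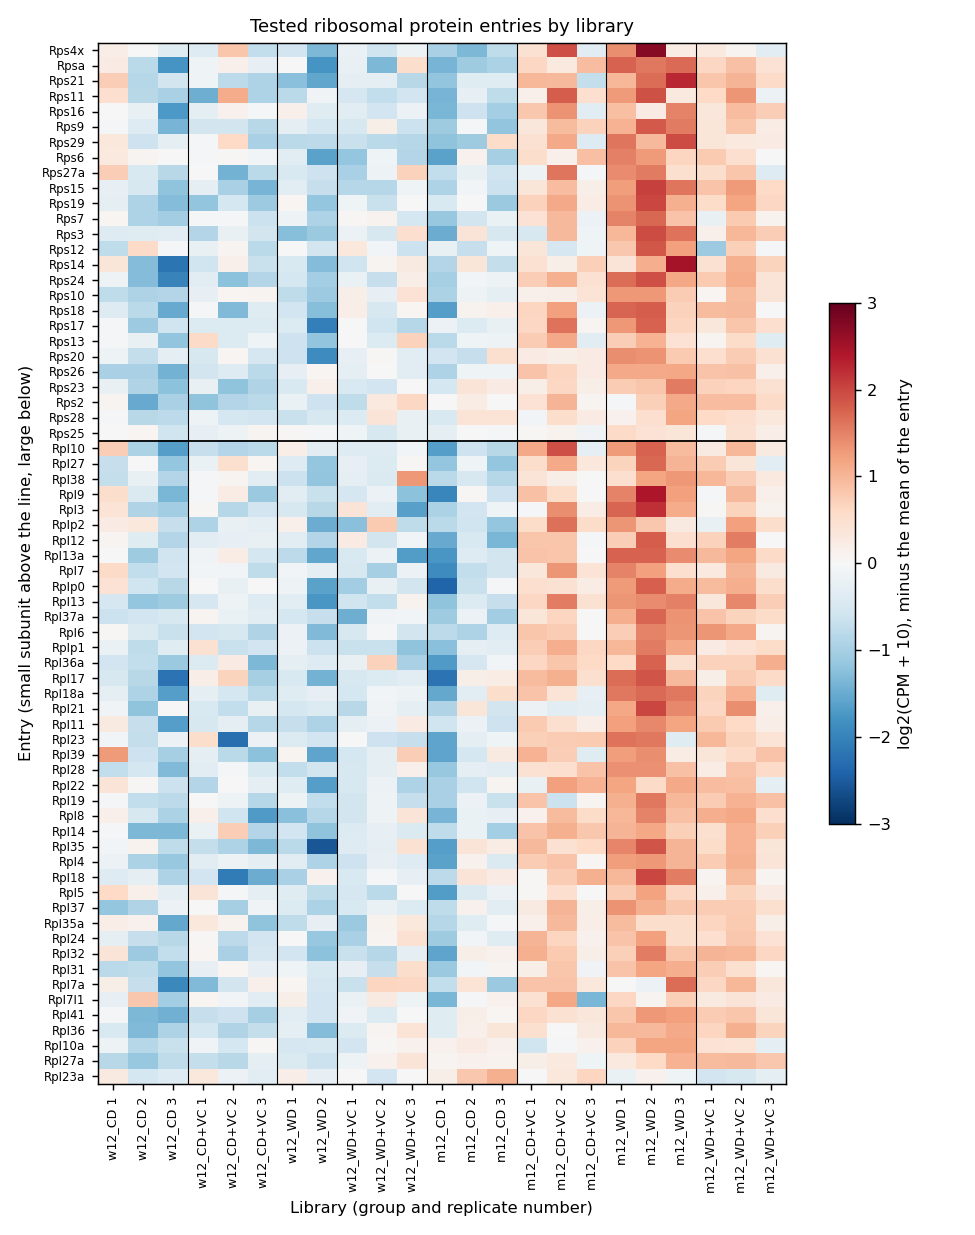
Level of 68 of the 70 tested entries in 23 libraries, as log2(CPM + 10) minus the entry's mean, small subunit above the line and large subunit below it. The 3 m12_WD columns are red over most of the map, and Rpl23a, in the bottom row, is highest in m12_CD instead.

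Western diet without vinyl chloride at 12 months was tested first, as m12_WD against m12_CD. Ribosomal protein entries of both subunits rose. By edgeR's quasi-likelihood test with Benjamini-Hochberg adjustment over all 4198 entries tested and a threshold of 0.05, 57 of the 70 were higher and 1 was lower. Over all entries 13.4% were called higher and 11.1% lower. The small subunit gave 23 higher of 28 and the large subunit 34 higher and 1 lower of 42. The median log2 fold change was 1.74 for the small subunit, 1.64 for the large and 0.11 over all entries. Among the 54 without an overlap, 46 were higher, beside 17.9% of all entries of that class, whose median was 0.48. In 63 of the 70 every m12_WD library lay above every m12_CD library, which held for 28.9% of all entries. Within the class without an overlap it held for 50 of 54 ribosomal entries and for 726 of all 2028 entries.

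Scaling moved the level of every entry in this comparison. With RLE size factors the median over all entries was 0.50 in place of 0.11, the split of all calls was 915 higher and 253 lower in place of 562 and 466, and the median of the ribosomal entries was 2.08. With factors computed apart for entries with and without an overlap, the median of all entries was 0.03 and that of the ribosomal entries 1.39. The median of ribosomal entries lay above that of all entries under each setting tried, leaving out each library included. Without m12_CD 1 the calls numbered 37, and with entries without an overlap tested alone 34.

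**Figure D3:**
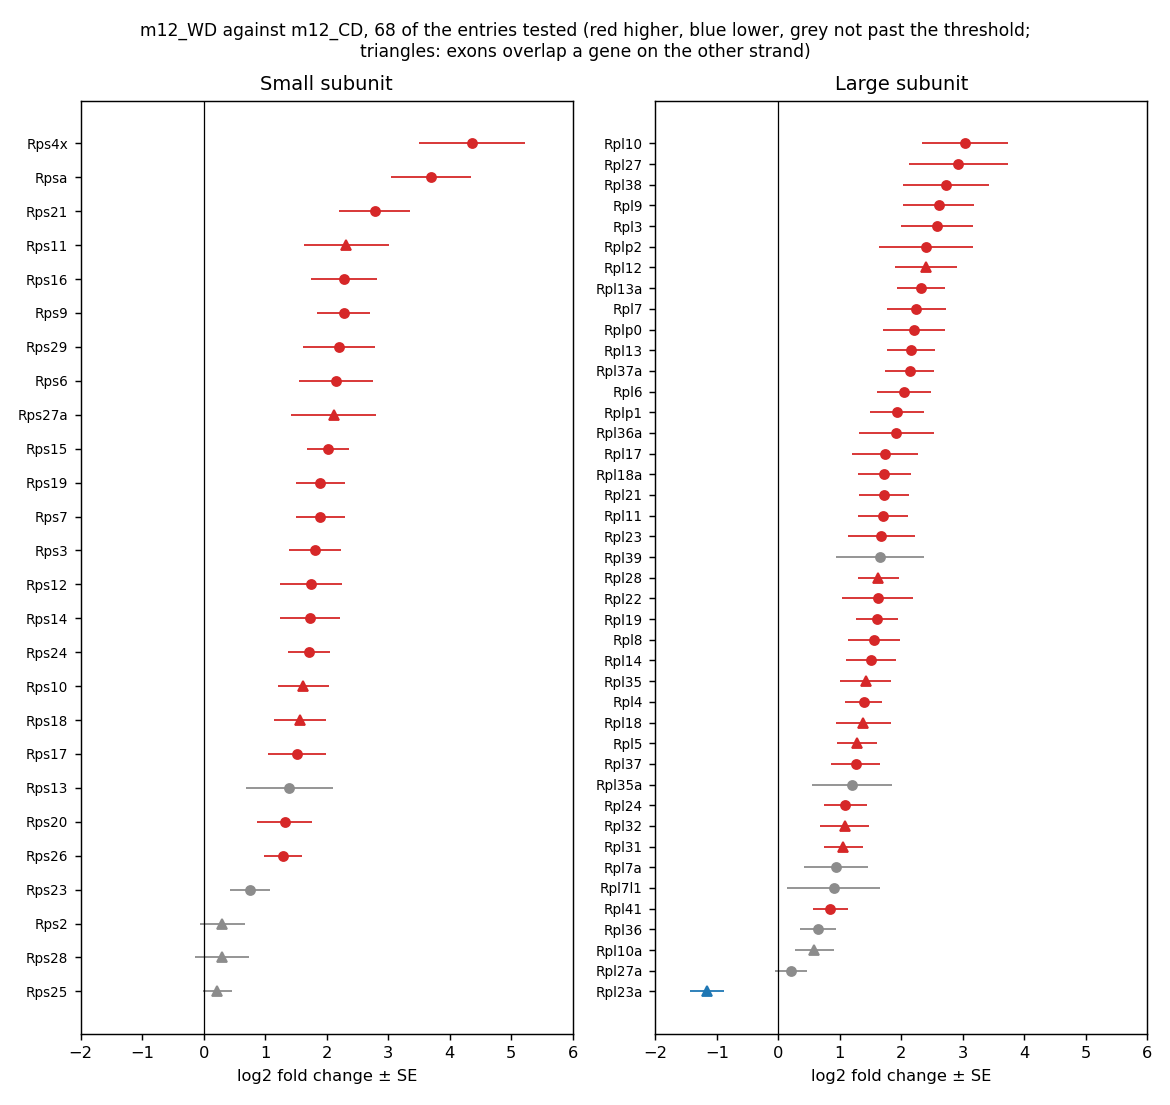
Fitted log2 fold change of m12_WD against m12_CD for 68 of the 70 tested entries, by subunit and ordered by size, with the SE. Points are entries without an overlap and triangles those with one, red and blue mark calls, and only Rpl23a is called lower while 12 grey entries did not pass.

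Rpl13a, a large-subunit protein also known for a role outside the ribosome in silencing inflammatory messages (chr7:45125558-45128761), had the smallest adjusted p. It stood at 18.1, 61.7 and 54.3 CPM in the m12_CD libraries, at 161, 159 and 83.3 with VC, at 311, 312 and 243 in m12_WD and at 177, 206 and 131 in m12_WD+VC. Every m12_WD library lay above all others, and m12_CD did not overlap any of the other 12-month groups. The fitted change of m12_WD against m12_CD was 2.32 ± 0.40 on the log2 scale (SE taken from the test statistic, 4.99-fold, edgeR adjusted p = 0.000102).

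Rps15, a small-subunit protein near the decoding centre (chr10:80292453-80294114), showed a similar order. Its m12_CD libraries held 30.1, 61.7 and 38.8 CPM, those of m12_CD+VC 87.7, 135 and 75.5, those of m12_WD 170, 302 and 222 and those of m12_WD+VC 127, 173 and 105. All m12_WD libraries were above those of m12_CD and m12_CD+VC, and the lowest of them met the range of m12_WD+VC. The change against m12_CD was 2.02 ± 0.35 (log2, SE, 4.06-fold, edgeR adjusted p = 0.000105).

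Rpsa encodes the small-subunit protein that was first described as the laminin receptor precursor (chr9:120127689-120132369). It held 1, 3 and 3 counts in m12_CD (3.01, 6.38 and 7.76 CPM) and 58, 38 and 98 in m12_WD (107, 93.3 and 102 CPM), with 42.5, 31.7 and 54.7 CPM in m12_CD+VC and 42.4, 53.1 and 35.9 in m12_WD+VC. The 4 groups fell on 3 levels, with both VC groups overlapping in the middle. The change against m12_CD was 3.70 ± 0.65 (log2, SE, 13.0-fold, edgeR adjusted p = 0.000146).

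Rpl13, a large-subunit protein (chr8:123102350-123105244), had 15.1, 34.0 and 25.9 CPM for m12_CD, 79.2, 159 and 70.3 for m12_CD+VC, 135, 145 and 155 for m12_WD and 63.6, 148 and 87.2 for m12_WD+VC. The m12_CD group was below every other 12-month group, and the other 3 overlapped. The change was 2.15 ± 0.39 (log2, SE, 4.44-fold, edgeR adjusted p = 0.000197).

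Rps4x, the X-linked small-subunit protein, had the largest fitted change but few counts. Its m12_CD libraries held 1, 0 and 2 counts and its m12_WD libraries 31, 65 and 19. The pooled ratio per library total was 23.9 with an exact 95% interval of 7.96 to 117, which covers counting error only. The m12_WD levels of 57.4, 160 and 19.7 CPM differed widely among themselves, and all lay above m12_CD.

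The stalk and the checkpoint proteins were followed by name. Rplp0, Rplp1 and Rplp2 form the acidic stalk that recruits elongation factors. Rplp0 was at 0, 23.4 and 41.4 CPM in m12_CD and at 118, 174 and 105 in m12_WD, without overlap (log2 2.21 ± 0.51, edgeR adjusted p = 0.0019). Rplp1 changed by 1.94 ± 0.44 (adjusted p = 0.00169) and Rplp2, with 7 counts in m12_CD and 72 in m12_WD, by 2.41 ± 0.76 (adjusted p = 0.0205), all by edgeR. Thus all 3 stalk entries rose. Rpl5 and Rpl11 join 5S RNA and, outside the ribosome, bind MDM2. Rpl11 was at 21.1, 31.9 and 20.7 CPM in m12_CD and at 99.9, 118 and 96.6 in m12_WD (log2 1.70 ± 0.41, edgeR adjusted p = 0.00271). Rpl5 rose from 72.9 ± 38.2 to 229 ± 53.7 CPM (SD, n = 3, log2 1.28 ± 0.32, edgeR adjusted p = 0.004), and its exons overlap Fam69a, whose own 6547 counts exceed the 1189 of Rpl5 and whose change did not pass (adjusted p = 0.163).

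Rps6, the substrate of S6 kinase, and Rpl10, a late-joining protein needed for subunit joining, were also called. Rps6 held 0, 11 and 2 counts in m12_CD (0, 23.4 and 5.17 CPM) and 41, 26 and 36 in m12_WD (75.9, 63.9 and 37.4 CPM). The groups did not overlap (log2 2.15 ± 0.60, edgeR adjusted p = 0.00932). Rpl10 was at 0, 10.6 and 7.76 CPM in m12_CD and at 66.6, 98.2 and 50.9 in m12_WD, again without overlap (log2 3.04 ± 0.70, edgeR adjusted p = 0.00211). It has 10 near-identical copies, so its reads are uncertain.

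The most counted entries behaved less alike. In the small subunit Rps24, a protein mutated in Diamond-Blackfan anaemia, rose from 100.0 ± 34.6 to 422 ± 111 CPM (SD, n = 3, log2 1.71 ± 0.34, edgeR adjusted p = 0.000523). Rps14 was called (log2 1.73 ± 0.48, edgeR adjusted p = 0.00896), yet its m12_WD libraries stood at 94.4, 160 and 436 CPM, and the lowest lay just above the highest m12_CD library at 91.4. In the large subunit Rpl4, which lines the exit tunnel, was at 78.3, 285 and 189 CPM in m12_CD and 637, 653 and 535 in m12_WD (log2 1.39 ± 0.30, edgeR adjusted p = 0.00113). Rpl41, the smallest protein of the ribosome, rose from 156 ± 31.4 to 361 ± 63.0 CPM (log2 0.85 ± 0.28, edgeR adjusted p = 0.0267).

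Other heavily counted entries did not pass. Rps25 stood at 334, 412 and 398 CPM in m12_CD and 624, 562 and 533 in m12_WD, groups that did not overlap per library total, and its change after scaling was 0.22 ± 0.24 (log2, SE, edgeR adjusted p = 0.528). Rpl27a stood at 289, 298 and 292 CPM in m12_CD and 335, 413 and 571 in m12_WD (log2 0.21 ± 0.26, adjusted p = 0.585), and Rpl36 had a change of 0.65 ± 0.29 (adjusted p = 0.0936), both by edgeR. For these 3 entries too every m12_WD library lay above every m12_CD library in CPM.

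Rpl23a, at the mouth of the exit tunnel (chr11:78180932-78183584), fell. It stood at 400, 621 and 745 CPM in m12_CD and 305, 388 and 321 in m12_WD, with 351, 444 and 560 in m12_CD+VC and 233, 250 and 290 in m12_WD+VC. Every library of m12_WD lay below every one of m12_CD. The change was -1.16 ± 0.28 (log2, SE, edgeR adjusted p = 0.00282), and DESeq2 gave -0.77 with an adjusted p of 0.0911. Its exons overlap Tlcd1 over 506 bases, an entry that held 46 counts against 3205 of Rpl23a.

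The fitted change was lower at high levels. The 10 entries with the highest mean CPM at 12 weeks gave 6 higher calls and a median log2 change of 0.95. The other 60 gave 51 and a median of 1.73. The rank correlation between change and 12-week level was -0.58 over the 70 entries, which share libraries and depth. An entry low at 12 weeks can pass the filter on low counts through a 12-month group in which it is high. The filter can therefore build in part of this relation, and how much was not tested. Without Rps25, Rpl23a and Rpl27a, a choice made after seeing the values, the share of counts in the rest was 3.70 times as high in m12_WD as in m12_CD. For the 19 entries with an overlap the ratio was 1.76, and for the 64 without it 3.60, against 1.66 for all entries without an overlap.

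The counts of opposite-strand partners were read beside them. Together the 14 partners in the table held 0.963 times the share in m12_WD that they held in m12_CD. Rpl18 shares 373 exon bases with Sphk2, whose counts were 80.0 times as many, and rose by 1.38 ± 0.45 while Sphk2 changed by -0.67 (edgeR adjusted p = 0.0229 and 0.248). Rps25 overlaps Trappc4, which fell (log2 -1.19, edgeR adjusted p = 0.032). Nkiras1 held 8575 counts against 45 of Rpl15, and Cand2 7379 against 731 of Rpl32. Neither partner passed in m12_WD against m12_CD (log2 -0.39 and -0.06, edgeR adjusted p = 0.259 and 0.910). In other pairs the ribosomal entry held more, as Rps18 did with 824 against 28 of Vps52. Which reads belong to which strand was not tested, nor whether partner counts hold reads of ribosomal messages.

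Other translation genes were read from lists. Of 14 tested elongation and other factors whose messages carry a TOP motif, 7 were higher and 0 lower, with a median of 1.20. Tpt1 (log2 1.98 ± 0.43, edgeR adjusted p = 0.0011) and Eef1a1, the factor that brings aminoacyl-tRNA (1.54 ± 0.36, adjusted p = 0.00244), had the smallest p. Fau, the source of the small-subunit protein eS30, rose (1.12 ± 0.35, edgeR adjusted p = 0.0193). Ribosome biogenesis factors gave 3 higher (Ncl, Rrp1 and Mybbp1a) and 1 lower (Tsr1) of 14 tested, with a median of 0.30. The summed level of the 36 biogenesis entries in the table went the other way. It ran from 5694 to 7019 CPM in m12_CD and from 5096 to 5312 in m12_WD. The mitochondrial ribosome gave 2 higher and 4 lower of 15 tested among its 77 entries, a median of -0.41 and a share of counts 1.13 times that in m12_CD. Among 8 tested initiation and mTOR genes Eif4a1 was higher and Akt1s1 lower, with a median of 0.26. The single tested S6 kinase entry and the single tested snoRNA host did not pass.

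Markers of several liver cell types were also higher in m12_WD than in m12_CD. Of 9 tested macrophage and Kupffer markers 6 were higher in m12_WD than in m12_CD and 0 lower, with a median log2 change of 2.35. Their summed level of 12 entries ran from 66.2 to 135 CPM for m12_CD, from 229 to 345 for m12_CD+VC, from 604 to 855 for m12_WD and from 339 to 588 for m12_WD+VC. Stellate markers summed to 6.02 to 25.5, 85.9 to 119, 157 to 177 and 69.3 to 142 CPM in that order (2 of 8 tested, 2 higher). Cholangiocyte markers summed to 0 to 10.3, 7.81 to 28.3, 81.4 to 216 and 42.4 to 92.4 CPM. Of these 5 only Spp1, which encodes a secreted phosphoprotein, was tested, and it was higher. Spp1 alone does not stand for a cell type. Endothelial markers summed to 44.6 to 49.2, 75.5 to 142, 135 to 209 and 127 to 172 CPM (2 of 8 tested, 1 higher). Hepatocyte markers gave 5 higher of 14 tested, a median of 0.76, and sums of 3887 to 12764, 21407 to 44230, 14419 to 29950 and 9720 to 15288 CPM. Lymphocyte and neutrophil markers summed to at most 21.8 and 33.2 CPM in any 12-month library and none was tested, and 4 of 5 erythroid markers were at 0. In bulk liver, a change in the number of cells of a type and a change in RNA per cell cannot be told apart, and the part of these cell types in the ribosomal result was not tested.

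Vinyl chloride on control diet at 12 months was tested as m12_CD+VC against m12_CD. Of the 70 ribosomal entries 8 rose and 0 fell, beside 4.1% of all entries higher and 1.12% lower. The median change was 0.80 for the small subunit, 0.93 for the large, 0.07 over all entries and 0.58 over entries without an overlap. The first 4 called were Rpl13 (log2 1.57 ± 0.41, edgeR adjusted p = 0.0237), Rpsa (2.56 ± 0.70, adjusted p = 0.0315), Rpl10 (2.69 ± 0.75, adjusted p = 0.0343) and Rpl7 (1.76 ± 0.51, adjusted p = 0.0409). Rpl7, which contacts 5S RNA, was at 3.01, 19.1 and 23.3 CPM in m12_CD and 50.9, 111 and 54.7 in m12_CD+VC, without overlap. The others were Rpl12, Rpl14, Rps16 and Rps4x, which held 3 counts in m12_CD and 24 in m12_CD+VC (ratio 11.0, exact 95% interval 3.34 to 57.1).

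These 8 calls were not firm. RLE factors gave 20 calls (all entries 434 higher and 8 lower, median 0.48, in place of 172 and 47), factors by overlap class gave 2, DESeq2 13 and the test of entries without an overlap alone 0. Leaving out m12_CD 1, m12_CD 3, m12_CD+VC 1 or m12_CD+VC 2 gave 0, and leaving out m12_CD+VC 3 gave 5. In 42 of the 70 every m12_CD+VC library lay above every m12_CD library, beside 25.1% of all entries. Within the class without an overlap this held for 34 of 54 ribosomal entries and for 735 of all 2028 entries. Hepatocyte markers gave 8 higher of 14 tested in the same comparison, with a median of 1.30, and macrophage markers 1 of 9. Their part was not tested. The comparison shares its control libraries with m12_WD against m12_CD.

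**Figure D4:**
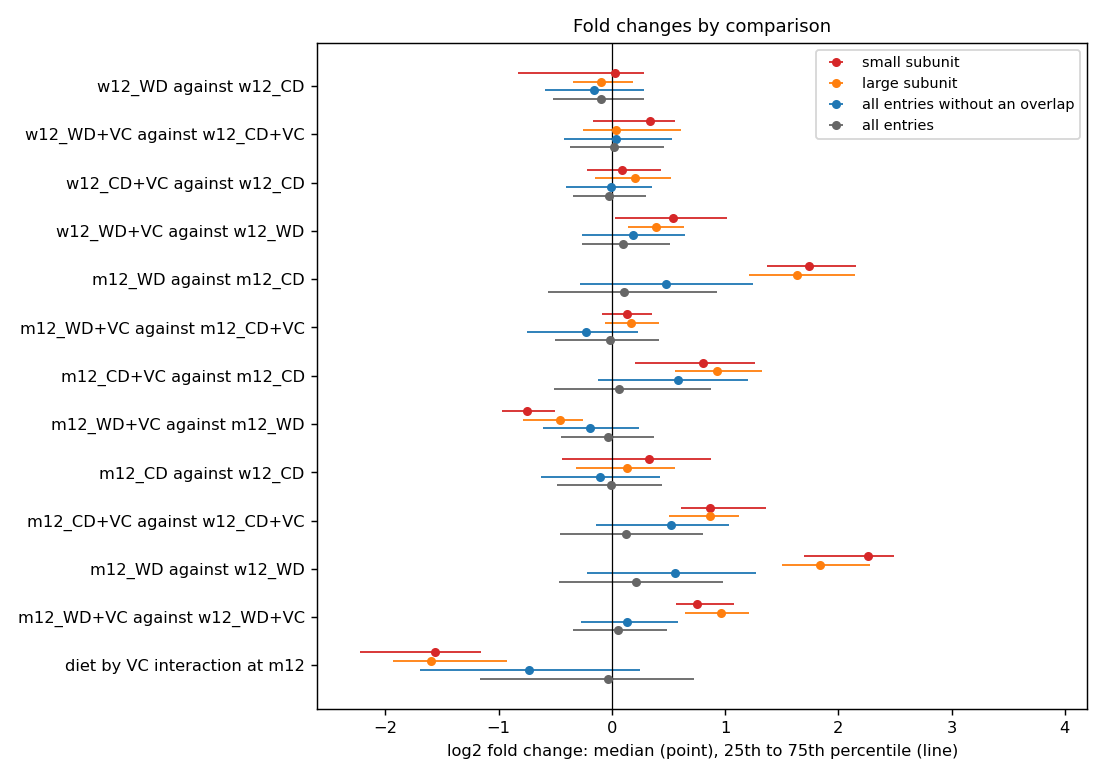
Median log2 fold change (point) and 25th to 75th percentile (line) of tested entries in each of the 13 comparisons, for the small subunit, the large subunit, all entries without an overlap and all entries. Both subunits lie farthest above all entries in m12_WD against w12_WD and m12_WD against m12_CD, with medians of 2.26 and 1.84 and of 1.74 and 1.64.

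Western diet on top of vinyl chloride, m12_WD+VC against m12_CD+VC, gave no ribosomal call by edgeR's quasi-likelihood test, with 3 of 70 (4.29%) at an unadjusted p under 0.05 beside 14.7% of all entries, and none by DESeq2. Of all entries 0.715% were called higher and 1.1% lower. The median was 0.16 over the 70 ribosomal entries and -0.01 over all, with DESeq2 -0.02 and -0.15. RLE factors gave 13 higher and 33 lower over all entries in place of 30 and 46, and a median of -0.14. Rpl27a (295 ± 43.8 and 521 ± 36.0 CPM, SD, n = 3, log2 0.87 ± 0.27, edgeR adjusted p = 0.0917) and Rpl21 (34.1 ± 2.55 and 82.5 ± 40.9 CPM, log2 1.30 ± 0.44, adjusted p = 0.135) had the smallest p, and neither group pair overlapped. Rpl21 has 17 near-identical copies.

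The difference between the diet effects was itself tested. The diet by vinyl chloride interaction at 12 months was lower in 15 of the 70 entries and higher in 0, beside 6.48% of all entries lower and 3.33% higher. In these 15 the diet change was smaller in the exposed mice. The median interaction was -1.60 over ribosomal entries, -0.04 over all and -0.73 over entries without an overlap, of which 211 of 2028 were called lower. In the same interaction hepatocyte markers gave 9 lower of 14 tested (median -2.02) and macrophage and Kupffer markers 3 of 9 (median -1.54). Spp1, the only tested entry of the cholangiocyte list, was lower (-3.15). The part of these cell types in the ribosomal result was not tested. Rps4x had -5.44 ± 1.18 (edgeR adjusted p = 0.00741), which rests on 3 counts in m12_CD, and Rpsa -3.70 ± 0.86 (adjusted p = 0.00996). Rps9, with 12.0, 34.0 and 10.4 CPM for m12_CD, 48.1, 79.3 and 65.1 for m12_CD+VC, 85.1, 155 and 126 for m12_WD and 49.5, 71.8 and 43.6 for m12_WD+VC, had -2.40 ± 0.60 (edgeR adjusted p = 0.0141). Its exposed groups overlapped each other and lay between the unexposed ones.

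Rplp1 had the fourth smallest p, with 6.02, 21.3 and 20.7 CPM for m12_CD, 53.8, 71.3 and 49.5 for m12_CD+VC, 66.6, 103 and 74.8 for m12_WD and 35.4, 42.1 and 46.2 for m12_WD+VC (log2 -2.33 ± 0.62, edgeR adjusted p = 0.0181). Again m12_CD was lowest, and m12_WD+VC lay below m12_CD+VC. Rpl13a, Rpl13, Rpl10, Rpl7 and Rps15 were also among the 15. The interaction shares its libraries with the comparisons above. Over all entries 140 were higher and 272 lower, against 39 and 481 with RLE factors (median -0.54, 32 ribosomal calls) and 117 and 139 with factors by overlap class (3 ribosomal calls). Leaving out 1 library gave 2 (without m12_WD+VC 3) to 21 (without m12_WD 3), with 3 without m12_CD 1 or m12_CD+VC 2, 5 without m12_WD+VC 1, 6 and 7 without m12_WD 1 and m12_WD 2, and 9 without m12_CD+VC 1. Rps4x and Rpsa were called whichever library was left out.

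Vinyl chloride on Western diet, m12_WD+VC against m12_WD, gave no ribosomal call by edgeR, with 17 of 70 (24.3%) at an unadjusted p under 0.05 beside 10.9% of all entries, and none by DESeq2. At the adjusted threshold 0.548% of all entries were higher and 0.0238% lower. The median was -0.75 for the small and -0.45 for the large subunit, against -0.04 over all entries, and 68 of 70 fitted changes were below 0. Hepatocyte and macrophage markers had medians of -0.72 and -0.69 in this comparison, with 0 called of 14 and of 9 tested, and their part was not tested. Rps4x (log2 -2.21 ± 0.69, edgeR adjusted p = 0.176) and Rps7, an MDM2-binding small-subunit protein (-1.10 ± 0.37, adjusted p = 0.228), had the smallest p. Rps7 was at 163, 194 and 102 CPM in m12_WD and 42.4, 95.2 and 56.5 in m12_WD+VC, without overlap. Without m12_WD 3 there was 1 call, Rps4x.

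At 12 weeks neither diet nor vinyl chloride gave a ribosomal call, by edgeR's quasi-likelihood test or by DESeq2. At an unadjusted p under 0.05 there were 5 for w12_WD against w12_CD, 8 for w12_WD+VC against w12_CD+VC, 3 for w12_CD+VC against w12_CD and 9 for w12_WD+VC against w12_WD, or 7.14%, 11.4%, 4.29% and 12.9% of the 70, beside 5.65%, 10.7%, 4.05% and 5.6% of all entries at that p. At the adjusted threshold 0.0238%, 0.286%, 0% and 0% of all entries were called higher and 0%, 0.238%, 0% and 0% lower. For w12_WD+VC against w12_CD+VC factors by overlap class gave 13 higher and 6 lower over all entries in place of 12 and 10. The median over ribosomal entries was -0.05, 0.22, 0.17 and 0.40 in that order, and over all entries -0.10, 0.02, -0.02 and 0.10. The first of these is 0.12 over ribosomal entries by DESeq2. In w12_WD+VC against w12_CD+VC Rps2 had a change of 1.24 ± 0.45 (log2, SE, edgeR adjusted p = 0.276). In w12_WD against w12_CD the first were Rps26 (1.14 ± 0.40) and Rps21, which held 1 and 0 counts in the usable w12_WD libraries and 10, 2 and 4 in w12_CD, in w12_CD+VC against w12_CD Rps10 (1.29 ± 0.52) and Rpl31 (0.84 ± 0.35), and in w12_WD+VC against w12_WD Rps3 had 1.74 ± 0.66. Comparisons with w12_WD have 2 usable libraries in that group. The difference between the 12-week and 12-month diet effects was not tested.

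The passage from 12 weeks to 12 months was followed in each treatment. Time also stands for 9 months of ageing and for a labelled feeding time of 12 months in place of 12 weeks. In the groups exposed to VC it also stands for the 9 months after exposure ended. These cannot be told apart. The protocol text gives 12 weeks of diet and then housing with or without WD. On Western diet, m12_WD against w12_WD, 50 of 70 ribosomal entries were higher and 0 lower, beside 7.74% of all entries higher and 6.86% lower, and the median was 2.26 for the small subunit, 1.84 for the large and 0.21 over all. Over entries without an overlap the median was 0.56, with 224 of 2028 called higher. In this comparison macrophage and Kupffer markers gave 5 higher of 9 tested (median 2.37), hepatocyte markers 6 of 14 (median 1.13) and Spp1 rose (3.94), and their part was not tested. Rps3, at the messenger entry of the small subunit, was at 11.9 and 14.8 CPM in w12_WD and 96.2, 196 and 156 in m12_WD (log2 3.34 ± 0.61, edgeR adjusted p = 0.000349). Rps24 (2.29 ± 0.42, adjusted p = 0.00035) and Rpl13a (2.65 ± 0.50, adjusted p = 0.000503) followed, and Rps21 held 1 count in w12_WD and 186 in m12_WD (ratio 54.2, exact 95% interval 9.60 to 2151). For none of these 4 did the groups overlap. Without w12_WD 1 the count was 18 and without w12_WD 2 it was 15, each leaving 1 usable library there, and without the library of 607 counts it was 45. RLE factors gave 426 higher and 206 lower over all entries in place of 325 and 288, a median of 0.45 and 55 ribosomal calls, and factors by overlap class 236 and 305, with 41.

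In m12_CD+VC against w12_CD+VC 10 of 70 were higher and 0 lower, beside 3.24% of all entries higher and 3.14% lower. The median was 0.86 over ribosomal entries, 0.13 over all and 0.53 over entries without an overlap, of which 99 of 2028 were called higher. Hepatocyte markers gave 3 higher of 14 tested (median 0.69) and macrophage markers 1 of 9 (median 1.54), and their part was not tested. Among the 10 ribosomal entries called were Rps19, the protein most often mutated in Diamond-Blackfan anaemia (log2 1.90 ± 0.48, SE, edgeR adjusted p = 0.0186), Rpl18 (2.33 ± 0.59, adjusted p = 0.0188) and Rpl35 (1.91 ± 0.51, adjusted p = 0.0231). Leaving out any 1 of the 6 libraries left 1 to 3 calls, fewest without w12_CD+VC 3 (1) and m12_CD+VC 1 (2). RLE factors gave 213 higher and 58 lower over all entries in place of 136 and 132, a median of 0.38 and 14 ribosomal calls.

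On control diet, m12_CD against w12_CD, 3 entries were higher and 0 lower, beside 0.691% of all entries higher and 0.929% lower, all 3 of them heavily counted. Rpl27a rose from 140 ± 20.3 to 293 ± 4.33 CPM (log2 1.19 ± 0.28, edgeR adjusted p = 0.0191), Rpl23a from 311 ± 101 to 589 ± 175 (1.06 ± 0.28, adjusted p = 0.0426) and Rpl36 from 73.8 ± 25.2 to 151 ± 39.6 (1.17 ± 0.31, adjusted p = 0.043). The libraries of Rpl23a overlapped. The median over ribosomal entries was 0.24 and over all entries -0.01. RLE factors gave 18 higher and 39 lower over all entries in place of 29 and 39, a median of -0.13 and 1 ribosomal call. Leaving out w12_CD 2, m12_CD 1 or m12_CD 3 gave 0 calls, and w12_CD 3 or m12_CD 2 gave 1. In m12_WD+VC against w12_WD+VC 1 of the 70 was called, Rps15, and 0 were lower, beside 0.524% of all entries higher and 0.262% lower. It rose from 40.9 ± 15.8 to 135 ± 34.7 CPM (log2 1.63 ± 0.38, edgeR adjusted p = 0.0255). The median was 0.82 over ribosomal entries and 0.05 over all. RLE factors gave 34 higher and 9 lower over all entries in place of 22 and 11, and a median of 0.19. That call was lost without any 1 of the 3 w12_WD+VC libraries, m12_WD+VC 1 or m12_WD+VC 2.

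The paralogs of ribosomal proteins, which stand in for their partners in some tissues, were close to the limit of detection. Rpl10l and Rpl39l held 0 counts in all libraries. Rpl3l, known from muscle, held 27 counts over all libraries, with 4 in m12_CD and 7 in m12_WD, the latter all in 1 library, while Rpl3 rose from 11.6 ± 6.10 to 92.9 ± 37.0 CPM between these groups (log2 2.58 ± 0.59, edgeR adjusted p = 0.00193). Rps4l held 30 counts, 2 in m12_CD and 10 in m12_WD (ratio 3.11, exact 95% interval 0.663 to 29.2). Rpl22l1 held 15 counts, 8 in m12_CD+VC, 7 in m12_WD and 0 in each of the other 6 groups, which is at least 1.45-fold higher in m12_WD than in m12_CD when 3 counts stand for the group at 0. Its partner Rpl22 rose from 13.3 ± 8.94 to 52.4 ± 13.5 CPM (log2 1.62 ± 0.57, edgeR adjusted p = 0.0367). Rps27l, a p53-inducible paralog, held 3 counts in m12_CD, 16 in m12_CD+VC and 15 in m12_WD (ratios to m12_CD of 7.34, interval 2.1 to 39.3, and 3.11, interval 0.880 to 16.8), and Rps27 itself held 8 counts in all. Rpl7l1 was at 11.0 ± 9.66 and 26.3 ± 8.02 CPM in m12_CD and m12_WD (log2 0.90 ± 0.75, edgeR adjusted p = 0.405), and Rpl39 at 12.2 ± 13.0 and 51.6 ± 23.4 CPM (1.65 ± 0.71, adjusted p = 0.0845).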

How the data were processed

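Per the submitters' processing notes, reads were handled with Trimmomatic 0.38, HISAT2 2.1.0 and HTSeq 0.11.2 on mm10. Neither these notes nor the labels name the annotation, the strand setting or filters. The authors deposited raw counts per gene symbol for 24 libraries, which were used for all tests and levels, and per-library log2 values, which matched the counts divided by a size factor, plus 1, in log2, at every value (0 differed). Counts were filtered with edgeR's filterByExpr, TMM-scaled and fitted with 1 quasi-likelihood model of 8 groups (edgeR 4.0.16, R 4.3.3, common biological coefficient of variation 0.317), with Benjamini-Hochberg adjustment over 4198 entries in each of 13 comparisons. The fit was also run on simulated counts with the same coefficient of variation (0.317) for every entry and no shift between overlap classes. That run does not show how the test behaves under the shifts between groups seen here. Replicates differed by more than counting noise (chi-square per degree of freedom 2.41 to 10.6), with 0 identical pairs. Levels are CPM of the library total, in libraries of at least 10000 counts. All 83 entries were placed in GENCODE M21 (GRCm38). Strand overlaps came from bedtools 2.31.1 and near-identical copies from blastn 2.17.0.

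The entries and gene lists were chosen with earlier results of these data known. Named genes were the 5 of each subunit with the highest mean CPM, up to 4 per direction with the smallest adjusted p in each comparison (or the 2 with the smallest p where none passed), and a list of stalk, checkpoint and paralog entries. Results of a few genes under this rule are not reported here. Other genes named with values were chosen after their values were seen. Alternatives were RLE factors, class-wise TMM, no filter, DESeq2 1.42.0, a fit of the compared groups alone, a block for the replicate number, and each library left out in turn. Leaving out the smallest library from the fit and testing entries without an overlap alone were chosen after seeing the data.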

Additional observations from a re-analysis of the deposited data

Results flagged for a closer look

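Ribosomal protein entries differed in their diet effect between exposed and unexposed mice at 12 months. By the interaction term of edgeR's quasi-likelihood fit, 15 of the 70 tested entries had a lower diet change in the exposed mice and 0 a higher one, beside 6.48% of all entries lower and 3.33% higher. Only 2 or 3 calls were left with class-wise factors, without a filter, with entries without an overlap tested alone, or without m12_WD+VC 3, m12_CD 1 or m12_CD+VC 2. The 4 with the smallest adjusted p were Rps4x (log2 -5.44), Rpsa (-3.70), Rps9 (-2.40) and Rplp1 (-2.33). In each of these 4 the mean level was lowest in m12_CD and highest in m12_WD, and the exposed groups lay between them.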

How the results depend on the processing

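The count of ribosomal protein calls in m12_WD against m12_CD (58) ran from 46 to 63 under RLE factors, class-wise factors, no filter, DESeq2, the compared groups alone and the fit of 23 libraries, was 34 with entries without an overlap tested alone, and 37 to 56 leaving out each library, lowest without m12_CD 1. Of the 58, 32 were called whichever library was left out. In m12_WD against w12_WD (50) the count was 30 without a filter, 30 for entries without an overlap alone and 15 to 48 leaving out each library. In m12_CD+VC against m12_CD (8) it was 20 with RLE, 2 with class-wise factors, 2 without a filter, 13 with DESeq2, 1 with the groups alone, 3 with 23 libraries, 0 for entries without an overlap alone and 0 to 7 leaving out each library. For the interaction (15) it was 32 with RLE, 3 with class-wise factors, 3 without a filter, 3 for entries without an overlap alone and 2 to 21 leaving out each library. In m12_CD+VC against w12_CD+VC (10) it was 4 with class-wise factors, 1 without a filter, 5 with the groups alone, 6 with 23 libraries, 0 for entries without an overlap alone and 1 to 3 leaving out each library. In m12_CD against w12_CD (3) it was 1 with RLE and DESeq2, 0 without a filter, with the groups alone and for entries without an overlap alone, and 0 to 2 leaving out each library. In m12_WD+VC against w12_WD+VC (1) it was 0 without a filter, with DESeq2 and for entries without an overlap alone, 8 with the groups alone and 0 to 1 leaving out each library. In m12_WD+VC against m12_WD (0) it was 0 to 1 leaving out each library. The cause of each shift was not tested. Counted only over the 64 entries without an overlap, the small-subunit share was 0.0618%, 0.0690%, 0.0626% and 0.0849% in w12_CD, w12_CD+VC, w12_WD and w12_WD+VC, and 0.0718%, 0.163%, 0.305% and 0.171% in m12_CD, m12_CD+VC, m12_WD and m12_WD+VC. The large-subunit share was 0.120%, 0.141%, 0.121%, 0.166%, 0.145%, 0.294%, 0.478% and 0.346% in the same order. Per TMM-scaled library size the small-subunit share in m12_WD was 0.373%. Of the 25 named gene results past the threshold, 10 stayed past it under every alternative that gave a value, and none of the 25 changed direction.

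The replicate numbers did not pair the samples: in 0 of 12 comparisons was every same-numbered correlation over 0.1 (range -0.31 to 0.184). With the replicate number as a block the counts were 58, 54, 9, 20, 9, 3 and 1 in the order above. The shallow libraries limit what can be seen: 13 of the 83 entries were not tested, and a level under 3.12 to 23.8 CPM cannot be told from 0 in a single library.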
